A study of Quercus ilex with 12 samples.

Results

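The change of the leaf transcriptome during water withholding was followed in droughted seedlings of holm oak (*Quercus ilex*), an evergreen Mediterranean tree. The 3 drought libraries of the second sampling were set against the 3 of the first, as their labels group them, which makes 6 of the 12 leaf libraries of the series. The other 6 come from well-watered seedlings taken at the same samplings. All seedlings were 6 months old, grown from germinated acorns, and differed, as labelled, in irrigation and in the day of sampling. The labels give these days as 20 and 25, while the series text speaks of 17 and 24 days. The samplings are therefore called first and second. The libraries are labelled as biological replicates. Neither the number of seedlings in each library nor the water status of the plants is given in the labels.

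When water is withheld, plants close their stomata, mainly through the hormone abscisic acid, and photosynthesis falls. Cells then build up compatible solutes and protective proteins such as dehydrins and other late embryogenesis abundant proteins. Holm oak is known to tolerate summer drought with its small, leathery leaves. None of these genes can be picked out here: the files give an expression value for each of 47568 assembled contigs (transcript sequences put together from reads) and pair none of them with a gene name or a sequence. The tissue could not be checked against leaf markers for the same reason, and contigs are described by their level, length and pattern. Beyond 4 contigs they are not given by identifier.

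The total of estimated counts (reads assigned to contigs) ran from 19794741 to 33384307 in the drought libraries of the first sampling and from 17160249 to 22317053 in those of the second. Of the 47568 contigs, 39725 had at least 10 counts over the 6 drought libraries, 22760 had at least 10 in each of them and 2328 had none. The filter on low counts, applied to all 12 libraries, left 33602 contigs for testing, and these held 99.8% of the drought counts. Levels are given as CPM (counts scaled to a common library total with TMM factors) and, where contigs of different length are set side by side, as TPM (scaled to a common total after allowing for length). At an equal depth of 17160136 counts, the first-sampling libraries had at least 1 read on 37462 to 38271 contigs and those of the second on 35695 to 38373. These ranges overlapped, and the difference of -605 contigs was within the spread between libraries (exact permutation test, two-sided, p = 0.7; 3 against 3 libraries cannot give less than 0.1). Its direction turned on 1 library: without replicate 1 of the second sampling, at 35695 contigs, the difference was 241.

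One drought library stood apart from the other 5 before any comparison was made. Across the 33602 contigs, the log2(CPM + 1) values of replicates 1 and 2 of the second sampling correlated with 0.954, the highest value of any drought pair. Replicate 3 of that sampling correlated with them by only 0.866 and 0.884. Its correlations with the 3 first-sampling drought libraries were 0.857 to 0.875, while replicates 1 and 2 reached 0.911 to 0.939 with the same libraries. Its closest library was a watered one of the first sampling (replicate 1, 0.928). In 7.14% of contigs replicate 3 lay more than 2-fold above or below all 5 other drought libraries, 1396 above and 1004 below. For the others this share was 0.455% to 2.27%. The label was kept, and several of the results that rest on this library are given with and without it.

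**Figure D1:**
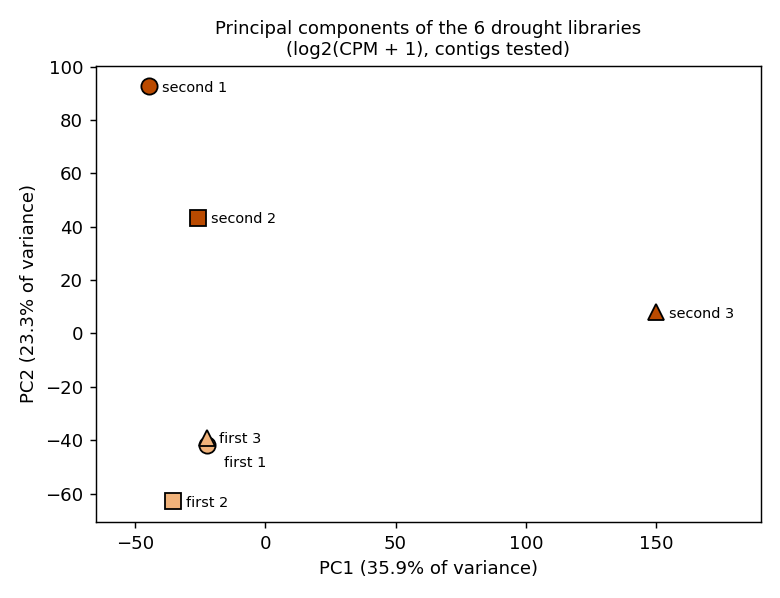
Position of the 6 drought libraries on the first 2 principal components of log2(CPM + 1) over the contigs tested; circles, squares and triangles are replicates 1, 2 and 3, light for the first and dark for the second sampling. PC1 (35.9% of the variance) separates replicate 3 of the second sampling from all others, and on PC2 (23.3%) the 3 first-sampling libraries lie below the 3 of the second.

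The distances between libraries of different samplings were within the range of those inside a sampling, but for 2 pairs that lay just outside it. Between 2 libraries of the first sampling the median absolute difference of a contig was 0.37 to 0.41 on the log2(CPM + 1) scale. Between 2 libraries of the second it was 0.34 to 0.54, with both values above 0.34 from pairs that include replicate 3. Between a library of the first and a library of the second sampling it was 0.32 to 0.54 (median of the 9 pairs 0.44). The smallest of all these differences, 0.32, was thus found between the samplings and not within one. Within the groups, the median SD of a contig on that scale was 0.34 at the first sampling and 0.39 at the second (n = 3 each), and 0.24 at the second without replicate 3 (n = 2).

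Between the samplings, edgeR called 1 contig lower and none higher in droughted leaves. At an adjusted p under 0.05 (edgeR, quasi-likelihood test), 0 of 33602 contigs (0%) were higher and 1 (0.00298%) was lower at the second sampling. With an unadjusted p under 0.05, 1161 were higher (3.46%) and 954 lower (2.84%), together 6.29% of those tested. DESeq2, another count test, called 148 higher (0.448%) and 181 lower (0.548%) of the 33042 contigs to which it gave an adjusted p. Without replicate 3 of the second sampling edgeR called 8 contigs, 2 higher and 6 lower, and without replicate 2 of that sampling it called 0. The fitted changes were centred on 0: the median log2 fold change was -0.01, with 5th and 95th percentiles of -1.85 and 1.79. More than 2-fold higher were 3621 contigs and more than 2-fold lower 4193, together 23.3%. In 29.5% of these the groups did not overlap, against 13.2% of all contigs tested. They were picked by the size of this same change, so a higher share is built in. A log2 fold change carried a median standard error of 0.66. In whole leaves, a change in the share of a cell type and a change of RNA within cells cannot be told apart.

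**Figure D2:**
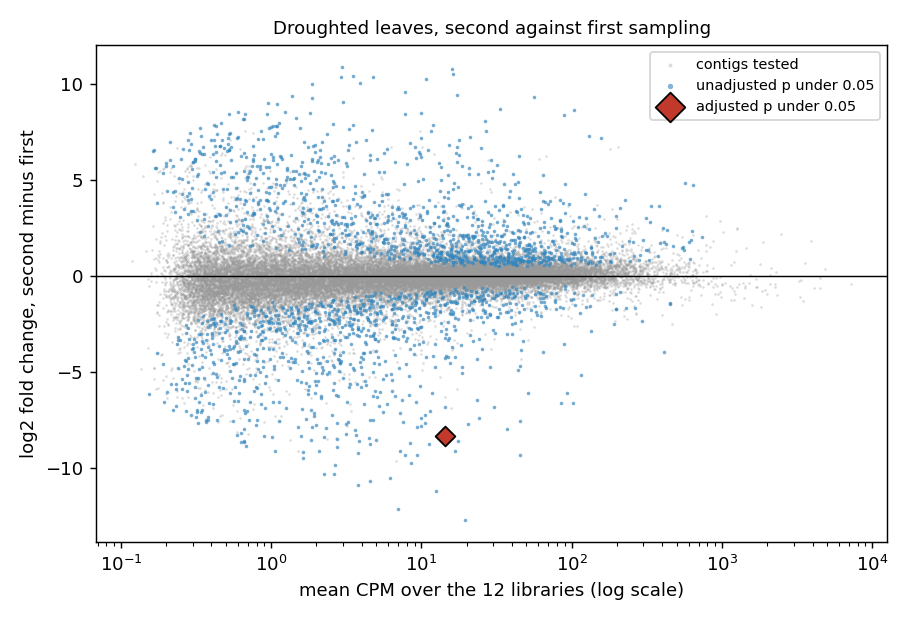
Log2 fold change of each contig in droughted leaves (second minus first sampling) against its mean CPM over the 12 libraries, on a log axis; grey points are all 33602 contigs tested, blue those with an unadjusted p under 0.05, and the diamond the 1 contig past the adjusted threshold. The cloud is centred on 0 and widens towards low levels.

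The contig that fell, contig-1441000019 (1664 bases), fell in droughted leaves to a few reads per library or none. It had 50.9, 29.7 and 28.8 CPM in replicates 1, 2 and 3 of the first sampling, and 0, 0.133 and 0.175 CPM in those of the second. The groups are far apart, and no library lies between them. The means were 36.4 ± 12.5 and 0.103 ± 0.0913 CPM (SD, n = 3), a log2 fold change of -8.32 (SE 0.73, edgeR adjusted p = 0.0053). The second-sampling libraries held 7 counts of it in all (95% exact Poisson interval 2.81 to 14.4, counting error only), so the size of the fall rests on few reads. It was 355-fold from the means and 157-fold at the upper end of the interval. The adjusted p was 0.098 without replicate 2 of the second sampling and 0.11 in a fit of the 6 drought libraries alone (2.6e-28 to 0.11 over 23 alternatives, 20 of them past the threshold and all lower). In watered leaves it was also lower at the second sampling, 0.847 ± 0.215 against 19.6 ± 5.71 CPM (SD, n = 3; log2 fold change -4.54, SE 0.60, edgeR adjusted p = 0.045). That watered call was not kept without replicate 1 or 3 of the second-sampling watered libraries, where 0 contigs passed. The 2 falls were not shown to differ (difference of log2 fold changes -3.78, SE 0.82, edgeR adjusted p = 0.48).

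The next contig by the same rule, contig-3443000021 (3139 bases), did not pass the test (edgeR adjusted p = 0.13) but had no read in any second-sampling drought library. Its first-sampling levels were 16.9, 6.62 and 6.72 CPM, a mean of 10.1 ± 5.92 (SD, n = 3). Set against a limit of 3 counts over the 3 second-sampling libraries this is at least 209-fold higher. Watered leaves had 5.06 ± 2.34 CPM at the first sampling and 0.0875, 0 and 0 CPM at the second. Of the 47568 contigs listed, it was among 9 with at least 10 counts in each first-sampling drought library and 0 in all 3 of the second. The opposite pattern was shown by 6 contigs, with 12 to 121 counts in the second-sampling libraries. The filter kept 8 of the 9 and all 6, and none of them passed with edgeR (lowest adjusted p = 0.13 and 0.72). Of the 9, none was at 0 in all watered libraries and 3 had counts in every one. Between the watered samplings, 15 contigs went to 0 by the same rule and 3 showed the opposite pattern, so neither pattern is particular to drought.

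In the other direction, contig-1156000002 (509 bases) and contig-2489000021 (387 bases) took the first places of the rule, and neither passed the threshold (edgeR adjusted p = 0.15 and 0.18). Both passed with DESeq2 (adjusted p = 1.4e-07 and 9.9e-07) and with limma-trend on TPM. Each passed in only 3 of 24 alternatives. The highest adjusted p was 0.78 for both (edgeR, without replicate 1 of the second sampling). contig-1156000002 had 3.84, 1.44 and 1.39 CPM at the first sampling and 27.9, 19.8 and 20.0 CPM at the second, with no overlap. Its log2 fold change was 3.34 (SE 0.51). contig-2489000021 went from 1.28, 0.787 and 0.743 CPM to 9.94, 7.42 and 6.77 CPM, with a log2 fold change of 3.10 (SE 0.49). Replicate 3 of the second sampling lay beside its group in both. Both contigs had higher mean levels in watered leaves: 27.4 ± 16.1 and 59.0 ± 2.58 CPM at the first and second sampling for contig-1156000002, and 9.66 ± 6.40 and 20.3 ± 0.968 CPM for contig-2489000021 (SD, n = 3). At the second sampling both thus stood in droughted leaves at a level within the range of the first-sampling watered libraries, 15.8 to 45.7 and 5.14 to 17.0 CPM. The 2 kept a similar order of level: the ratio of their TPM values was 1.82 to 2.16 in the watered libraries and 1.23 to 2.03 in the drought libraries. Whether they are pieces or copies of 1 transcript cannot be told from these files.

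**Figure D3:**
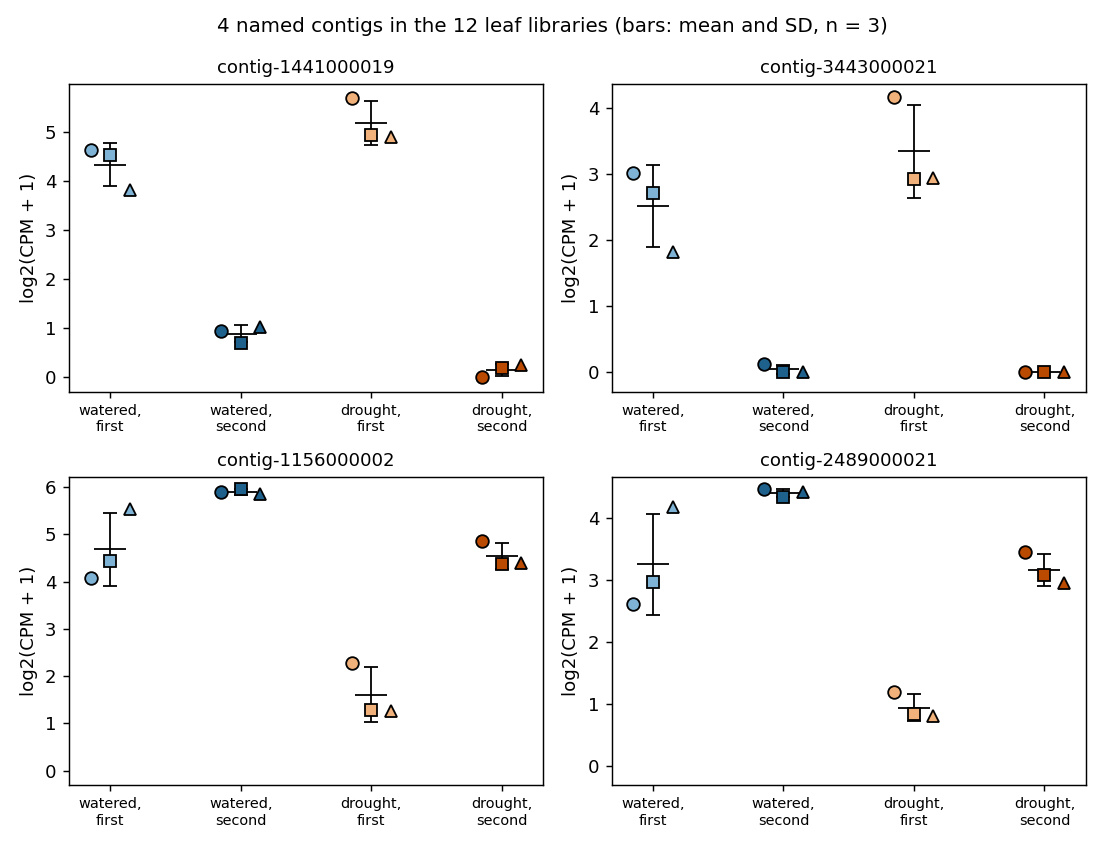
Level of 4 contigs in the 12 libraries as log2(CPM + 1), by water supply and sampling; circles, squares and triangles are replicates 1, 2 and 3, and bars give mean and SD (n = 3). The upper 2 contigs are at 1.02 CPM or less in every second-sampling library, watered or droughted, and the lower 2 are lowest in droughted leaves of the first sampling.

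The 20 contigs with the smallest p-values in each direction changed by similar sizes. Those lower at the second sampling had log2 fold changes of -10.84 to -1.74 (median -3.81) and adjusted p-values of 0.0053 to 0.25 (edgeR). Those higher had 2.73 to 9.59 (median 3.82) and adjusted p-values of 0.15 to 0.49. The lower ones had a median level of 20.4 CPM over the 12 libraries and a median length of 1166 bases, and the higher ones 4.85 CPM and 647.5 bases. Among the 8 contigs that edgeR called without replicate 3 of the second sampling, an abundant one averaged 1340 CPM in droughted leaves of the first sampling and 52.6 CPM in replicates 1 and 2 of the second (log2 fold change -4.67, SE 0.56, edgeR adjusted p = 0.032). In replicate 3 it had 156 CPM, and with this library included its log2 fold change was -3.95 (edgeR adjusted p = 0.13). For others of the 8, replicate 3 also lay away from replicates 1 and 2, on the side of the first sampling. The 8 were picked with this library left out, so such a place is built in for those that did not pass with it. A contig that averaged 0.495 CPM at the first sampling and 32.1 CPM in replicates 1 and 2 of the second had 0.568 CPM in replicate 3, near the first-sampling mean (edgeR adjusted p = 0.036 without this library and 0.49 with it). The other contig called higher had only 4 counts in replicate 3, and was not tested with this library included. A contig called lower averaged 13.7 and 0.052 CPM, and had 4.33 CPM in replicate 3, between the 2 means (edgeR adjusted p = 0.0033 without replicate 3 and 0.77 with it).

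The direction of the small shifts went with the level of a contig. The 3 second-sampling drought libraries all lay above the 3 of the first for 1983 contigs (5.9% of those tested) and all below for 2463 (7.33%). Of the 6872 contigs under 1 CPM, 2.92% lay above and 8.60% below, with a median log2 fold change of -0.28. Of the 11864 at 1 to 10 CPM, 4.40% lay above and 8.58% below. At 10 to 100 CPM the balance turned, with 7.92% above and 5.81% below. Of the 1906 contigs at 100 to 1000 CPM, 12.5% lay above and 4.98% below (median log2 fold change 0.20). The 51 contigs over 1000 CPM had 0 above and 9 below (17.6%; median -0.41). By fitted change, 8 of these 51 were more than 2-fold higher and 7 more than 2-fold lower. Classes were set by the mean over all 12 libraries, and these shares are a description without a test. Without replicate 3 of the second sampling the medians ran from -0.59 under 1 CPM to 0.17 at 100 to 1000 CPM, and -0.29 above it. The shares above and below were then 6.46% and 17.7% under 1 CPM, and 21.9% and 7.50% at 100 to 1000 CPM. They were 1.96% and 17.6% over 1000 CPM, and 12.1% and 14.1% over all contigs tested. With 2 libraries against 3, groups separate more easily, so these shares are not comparable in size with those above. In watered leaves the medians ran from -0.44 under 1 CPM to 0.22 at 100 to 1000 CPM, but were 0.37 over 1000 CPM. Mean depth was 25065306 counts at the first and 20406973 at the second sampling, and the part of depth in the low classes was not tested. By length the medians of the 4 classes lay between -0.01 and 0.08, and the shares differed less than by level. Of the 642 shortest contigs 6.85% lay above and 5.45% below, and of the 5885 longest 5.54% above and 7.61% below. The 2 classes between had 5.85% and 6.07% above, and 6.95% and 7.72% below.

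**Figure D4:**
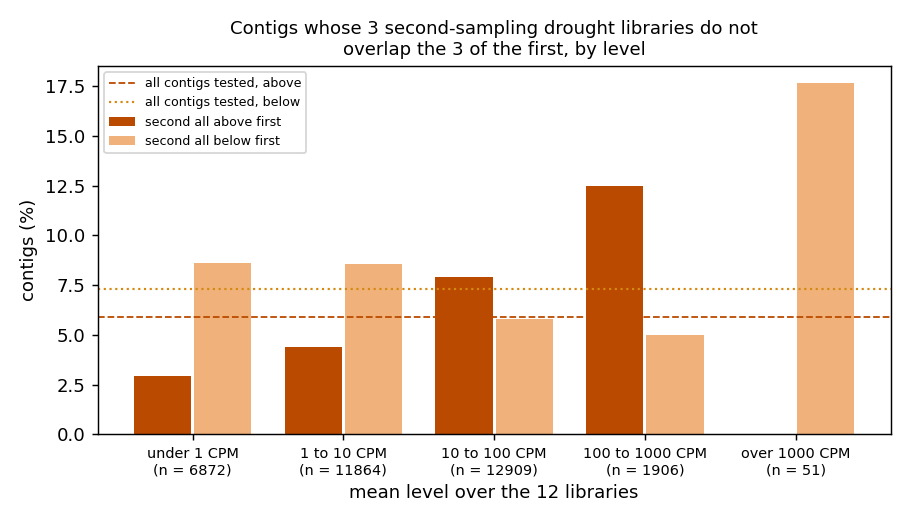
Percent of contigs whose 3 second-sampling drought libraries all lie above (dark) or all below (light) the 3 of the first, by mean CPM over the 12 libraries; dashed and dotted lines give 5.9% and 7.33% over all contigs tested. The share above grows from 2.92% to 12.5% up to 1000 CPM, and is 0 in the class over 1000 CPM, which holds 51 contigs.

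Among the most abundant contigs no change between the samplings passed the test, and single libraries differed widely. The 100 contigs with the highest mean TPM over the 12 libraries made up 15.7% to 26.6% of the TPM of a drought library. None of them passed the threshold with edgeR (lowest adjusted p = 0.77; 1 had an unadjusted p under 0.05). Their median log2 fold change was -0.30, with 14 more than 2-fold lower and 9 more than 2-fold higher. Some of both rested mainly on replicate 3 of the second sampling. By CPM, the second-sampling libraries all lay below the first in 13 of the 100 and all above in 6. Over all contigs tested these shares were 7.33% and 5.9%. By TPM some of these 13 overlapped. One of those 13, of 1109 bases, had 4550, 2941 and 2377 TPM at the first sampling and 945, 1777 and 520 TPM at the second (log2 fold change -1.61, SE 1.13, edgeR adjusted p = 0.86). Of the 100, replicate 3 of the second sampling had 9 more than 2-fold above and 22 more than 2-fold below all other drought libraries, while the next highest library, replicate 3 of the first sampling, had 5 and 1. The mean that picked the 100 includes these libraries, so a contig high in a single library can enter through it. Counts above the other libraries are thus partly built in. A contig of 222 bases had 356, 270 and 120 TPM at the first sampling, 150 and 192 TPM in replicates 1 and 2 of the second, and 4348 TPM in replicate 3. A contig of 569 bases had 6095, 3152 and 7562 TPM at the first, 1289 and 3062 TPM in replicates 1 and 2 of the second, and 96.4 TPM in replicate 3. The lists of the 100 highest contigs of each sampling shared 73, and those of the 10 highest shared 6.

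In droughted leaves more contigs made up the same share of expression at the second sampling, in all 3 libraries. To reach 50% of the TPM took the 845, 975 and 716 most abundant contigs in replicates 1, 2 and 3 of the first sampling, and 1088, 982 and 1054 in those of the second. The groups do not overlap, but 975 and 982 nearly meet. The means were 845 ± 130 and 1041 ± 54.1 (SD, n = 3), a difference of 196 contigs (exact permutation test, two-sided, p = 0.1, the smallest possible with 3 against 3). Measured on counts in place of TPM the groups overlapped (1412 to 1584 against 1497 to 1639, p = 0.2 by the same exact test). The 100 most abundant contigs held 18.3% to 20.0% of the counts at the first sampling and 15.1% to 18.2% at the second (p = 0.1, same exact test). For the 10 most abundant the shares were 5.77% to 6.33% and 4.30% to 6.79%, with overlap (difference -0.727 percentage points, p = 0.4, same exact test). The overlap came from replicate 3 of the second sampling, at 6.79%. Without it the difference was -1.44 percentage points (exact permutation test, p = 0.1, the smallest possible), and without replicate 1 of that sampling it was -0.196 (p = 0.8, same exact test). The gap between length and effective length of a contig, which follows the size of the sequenced fragments and enters the TPM, was 132 to 135 bases at the first sampling and 134 to 135 at the second. Its part in the TPM measure was not tested.

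**Figure D5:**
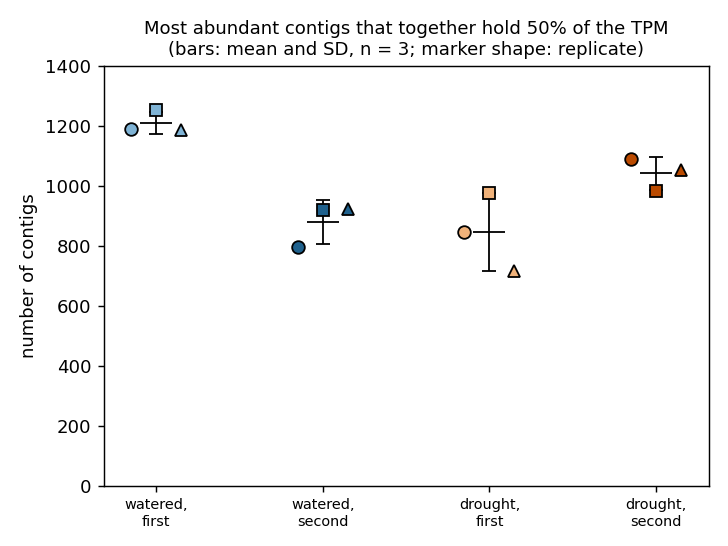
Number of the most abundant contigs that together hold 50% of the TPM of a library, for watered and droughted leaves at both samplings; circles, squares and triangles are replicates 1, 2 and 3, and bars give mean and SD (n = 3). In droughted leaves the number goes from 716 to 975 up to 982 to 1088, and in watered leaves from 1186 to 1253 down to 796 to 923.

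Watered leaves were sampled on the same days and share no library with the drought comparison. There the 3 libraries of the second sampling did not overlap those of the first for 18.6% of contigs (8.51% above, 10.1% below), against 13.2% in droughted leaves. The median absolute log2 fold change was 0.68 in watered and 0.45 in droughted leaves. Watered libraries also spread more within their groups. On the log2(CPM + 1) scale the median SD of a contig was 0.41 and 0.48 at the first and second sampling. In droughted leaves it was 0.34 and 0.39 (n = 3 each). Watered replicate 3 of the second sampling held the fewest counts of the 12 libraries, 11239487. edgeR called 3 contigs higher (0.00893%) and 4 lower (0.0119%) in watered leaves. At an unadjusted p under 0.05, 8.95% were higher and 8.09% lower, together 17%. DESeq2 called 5.67% higher and 3.11% lower, out of the 27251 contigs to which it gave an adjusted p there. Over 33602 contigs the Pearson correlation of the log2 fold changes was 0.07, with the same sign in 56.5%. Contigs are not independent replicates, so no test goes with this value. It takes in 6872 contigs under 1 CPM, with a median standard error of 1.19 under drought. Imprecise changes pull a correlation towards 0, and it was not computed by level. When the change with time was tested for a difference between droughted and watered leaves, 0 contigs (0%) passed with edgeR (lowest adjusted p = 0.056; 3081, or 9.17%, at an unadjusted p under 0.05, 5.34% higher and 3.83% lower). DESeq2 called 259 higher (0.851%) and 169 lower (0.555%) of the 30448 contigs to which it gave an adjusted p for this difference. Without drought replicate 3 of the second sampling and watered replicate 2 of each sampling, edgeR called 23 such differences and 14 contigs in the drought comparison (5 higher, 9 lower). Both watered libraries stood apart too: they correlated with each other by 0.927 and with their own groups by 0.853 to 0.890. A change particular to droughted leaves is thus given here for no single contig.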

How the data were processed

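Leaf RNA was sequenced from 12 libraries, made with a stranded mRNA kit per the labels. The authors deposited, for each contig of an assembly, an estimated count from RSEM, which splits a read that matches several contigs among them and is not normalized. Contigs of similar sequence can thus share reads. The deposited TPM values are scaled by the authors for effective length and to the same sum in each library. The deposited FPKM values were not used. The processing notes name cutadapt 1.9 and RSEM. The assembler and aligner were not given in the sources used. Effective length, in bases, is another deposited column.

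Counts were rounded and fitted with edgeR 4.0.16 (R 4.3.3): TMM scaling, the default filter by group, 1 quasi-likelihood fit of 4 groups over 12 libraries, Benjamini-Hochberg adjustment over 33602 contigs, threshold 0.05. The standard error is the log2 fold change over the square root of F. Single values per library were compared by exact permutation over libraries. DESeq2 1.42.0, limma 3.58.1 (trend on log2(TPM + 1) and log2(TPM + 0.1), and voom with library weights), other scalings and filters, the replicate block, and leaving out libraries were the alternatives. Named contigs: at most 2 in each direction, past the threshold, groups not overlapping, at least 1 CPM in the higher group, largest change first, then filled by smallest unadjusted p among those with at least 10 counts in each library of the higher group, the same minimum CPM and no overlap. The comparison and this rule were chosen with earlier results of these data known. No pair of drought replicates agreed within counting noise (lowest chi-square per degree of freedom 62.8). The deviations of same-numbered libraries of the 2 samplings correlated with -0.029 to 0.0059, so the numbers were not treated as pairs.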

Additional observations from a re-analysis of the deposited data

Results flagged for a closer look

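The number of contigs that hold 50% of the TPM changed with time in opposite directions in droughted and watered leaves, and was taken up for this difference between the groups after the values were seen. It was higher by 196 at the second sampling under drought. In watered leaves it went from 1210 ± 37.6 to 879 ± 72.2 (SD, n = 3), a difference of -330 (exact permutation test, p = 0.1, the smallest 3 against 3 can give). The 2 time changes lay 526 contigs apart, with no overlap between the samplings in either, and this difference was not tested. The difference under drought rests on TPM, since the groups overlapped when counts were used.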

How the results depend on the processing

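How many contigs passed the threshold moved with the tool and with the libraries used. The cause was not tested. They are given in the order drought, difference from watered, and watered, against 1, 0 and 7 above. With DESeq2 they were 329, 428 and 2392. With limma-trend they were 7 (2 higher), 4 and 42 for a pseudocount of 1 TPM, and 8 (2 higher), 4 and 26 for 0.1 TPM. limma-voom with library weights gave 20 (all lower), 0 and 3234. At least 10 counts in every library gave 0, 1 and 2, where fewer contigs were tested. With the replicate number as a block the counts were 0, 0 and 1, and contig-1441000019 had an adjusted p of 0.062 (edgeR). Fits of only the 6 libraries compared gave 0 for drought and 0 for watered leaves. For watered leaves RLE factors gave 1 and upper-quartile factors 3. Without the 3 libraries that stand apart, an alternative chosen after seeing the data, the counts were 14, 23 and 3239. Leaving out each library in turn gave 0 to 8, 0 to 4 and 0 to 3090. The highest watered count, and the 4, came without watered replicate 2 of the second sampling. The drought count was 3 without watered replicate 2 of the first sampling and 2 without either of drought replicates 1 and 3 of the first sampling or watered replicate 2 of the second. The difference in contigs with a read at equal depth ran from -1098 to 241 and turned to 241 without drought replicate 1 of the second sampling. That in the share of the 10 most abundant contigs ran from -1.44 to -0.196 percentage points, and that in contigs holding 50% of the TPM from 131 to 261. All 4 named contigs kept their direction under every alternative that tested them. Precision differed by level: the median standard error was 1.19 on the log2 scale under 1 CPM, 0.40 at 10 to 100 CPM and 0.74 over 1000 CPM. The part of depth in this was not tested.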
